A study of Homo sapiens with 12 samples.

Results

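The comparison described here is that of untreated H1650 cells with untreated A549 cells, both established human lung adenocarcinoma lines. Its members are the 3 untreated H1650 and the 3 untreated A549 libraries, 6 of the 12 libraries of a study of SRSF2, a serine/arginine-rich splicing factor. The other 6 libraries come from the same lines over-expressing SRSF2, and they served here to share the estimate of spread and to repeat the comparison. RNA was extracted with TRIzol, polyadenylated RNA was sequenced, and the authors deposited raw read counts for each gene. The controls are labelled untreated, but NC in their titles has no stated meaning, so cells given an empty construct and cells given nothing cannot be told apart. Each line descends from 1 patient's tumour, and the labels do not say whether the 3 libraries of a line came from separate cultures. The p-values therefore measure the spread between these libraries, which may be technical, and the difference between 2 lines carries every difference between 2 tumours.

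A549 has lost STK11, KEAP1 and SMARCA4 function, and H1650 carries an activating EGFR deletion. KEAP1 marks the transcription factor NRF2 (gene NFE2L2) for degradation, so cells without working KEAP1 keep NRF2 and transcribe detoxifying and NADPH-producing enzymes. Interferons act through a factor complex that holds STAT2 and IRF9, which binds the interferon-stimulated response element (ISRE) and switches on antiviral genes. In epithelia, E-cadherin, tight-junction and desmosome proteins hold neighbouring cells together, and the ZEB factors repress them.

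Totals ran from 27419445 to 28585990 counts in A549 and from 29680775 to 31106933 in H1650, so depth differed little between the lines. Replicates were close: the biological coefficient of variation was 0.0298 in A549 and 0.0338 in H1650, and the first principal component, which separated the lines, held 98.8% of the variance of the 6 libraries. Values below are CPM, a gene's count per 1e+06 counts of its library after TMM scaling. A difference is log2 of H1650 over A549 from an edgeR fit, positive where H1650 was higher. Every gene of the table had a count in at least 4 A549 libraries, and no gene was at 0 in all untreated A549 libraries, whereas 267 were at 0 in all untreated H1650 libraries. Genes silent in A549 are thus not analysed here, and lists of genes hold fewer H1650-specific members than they otherwise might. Both lines were epithelial by their keratins: KRT8 was at 5008 against 4213 CPM and KRT18 at 1884 against 1125 CPM (A549 against H1650, means of 3 libraries). Of markers of other cells, no erythroid gene of 7 listed, 2 of 10 endothelial genes, 2 of 10 fibroblast genes and 4 of 10 leukocyte genes were in the table. These 4 leukocyte markers, of which 3 were tested, were summed per 1e+06 raw counts of a library, without TMM scaling. The sums were 11.9 to 12.8 in A549 and 0.964 to 1.32 in H1650, and CD14 and ITGAM were called lower in H1650. The part of other cells in the results was not tested.

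The lines differed at most genes. Of 15991 genes tested, 13182 (82.4%) had an edgeR adjusted p under 0.05, 6411 (40.1%) higher and 6771 (42.3%) lower in H1650. Because so many small differences pass, the text also uses a stricter test, that the change exceeds 2-fold (edgeR glmTreat, adjusted p under 0.05), which 5188 genes (32.4%) passed, 2452 (15.3%) higher and 2736 (17.1%) lower. The median difference over all genes tested was -0.04, and the median size of a difference, in either direction, was 0.76. In 6535 genes (40.9%) every H1650 library lay above every A549 library, and in 6900 (43.1%) the reverse held. The gene lists below are read against these shares.

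**Figure D1:**
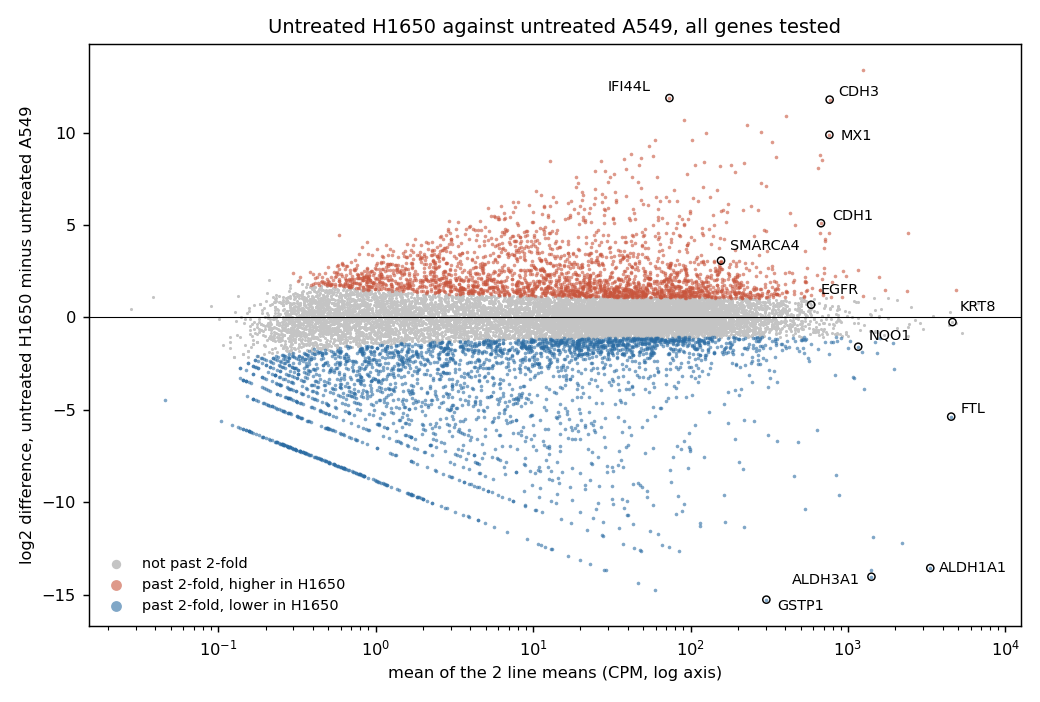
Each point is a gene tested: the mean CPM of the lines (log axis) against the log2 difference of untreated H1650 minus untreated A549. Red points (2452) and blue points (2736) passed the 2-fold test. The diagonal blue stripes at the lower left are genes with no or a few counts in H1650, whose fitted difference depends on the prior count.

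Epithelial junction genes, listed with membrane proteases, their inhibitors and regulators, were the group furthest above A549 in H1650. Of 28 tested members of a list of 35 epithelial junction and protease genes, 22 passed the 2-fold test as higher in H1650 and 2 as lower, with a median of 3.98 against -0.04 for all genes. CDH1 (E-cadherin) was at 36.8, 41.7 and 36.01 CPM in A549 and 1322, 1319 and 1287 CPM in H1650 (log2 5.100, SE 0.0488, edgeR adjusted p = 1.94e-40). The groups did not overlap, and A549 kept some CDH1 RNA. CDH3 (P-cadherin) was at 0.558, 0.601 and 0.136 CPM in A549 and 1523, 1494 and 1570.5 CPM in H1650. CDH3 was therefore near the counting limit in A549 and abundant in H1650. EPCAM, an epithelial adhesion molecule, was at 5.72 ± 0.451 against 307 ± 9.64 CPM (mean ± SD, A549 against H1650, n = 3 each).

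The same list also holds a membrane protease, its partners and regulators of epithelial genes, which are part of the counts above. ST14 (matriptase) was at 0.4199 against 810.2 CPM in A549 and H1650, its inhibitor SPINT1 at 0.523 against 561 CPM, and PRSS8 (prostasin, a membrane-anchored protease) at 0.151 against 118 CPM. The second inhibitor, SPINT2, was present in both lines (294 against 783 CPM, log2 1.41). Tight-junction genes CLDN4 (7.09) and MARVELD3 (6.79) and desmosome genes DSC2 (5.02) and DSG2 (2.57) were higher in H1650 on the log2 scale. CLDN3, another claudin, went the other way (5.003 against 0.198 CPM), and TJP1 (ZO-1) hardly differed (417 against 346 CPM, log2 -0.27). ESRP2, a splicing regulator of epithelial isoforms, was at 0.454, 0.212 and 0.136 CPM in A549 and 122, 109 and 118 CPM in H1650. OVOL2, a repressor of mesenchymal genes, was at 0.544 against 24.2 CPM.

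Mesenchymal genes split in both directions. Of 24 tested, 8 were past 2-fold higher and 10 lower in H1650, with a median of -0.27. The repressor ZEB1 was at 36.7, 38.1 and 40.4 CPM in A549 and 1.77, 2.14 and 2.02 CPM in H1650, ZEB2 at 6.24 against 0.0985 CPM, the intermediate filament gene VIM at 419.8 against 48.9 CPM and CDH2 (N-cadherin) at 22.8 against 0.219 CPM, all lower in H1650. Matrix genes ran the other way: SPARC was at 0.917 against 657 CPM, COL5A1 at 53 against 1276 CPM and the collagenase MMP2 at 9.07 against 325 CPM. SNAI1, a transcription factor that represses CDH1, was at 3.89 against 24.8 CPM, higher in the line with more CDH1. Among integrins and laminins, 10 of 21 were past 2-fold higher and 1 lower in H1650 (median 0.82). The laminin chains LAMA3 and LAMB3 were higher by 1.67 and 2.94, and ITGB8, ITGA1 and ITGB6 by 5.64, 5.09 and 3.15. ITGB5 was lower (721 against 226 CPM).

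A549 carried RNA of liver and gut genes that H1650 nearly lacked. Of 19 tested members of a list of 28 gastrointestinal and hepatic genes, 16 were past 2-fold lower in H1650 and 1 higher. Their median was -6.53, or -6.096 with genes at 0 set to their bounds. Listed genes silent in A549 could not be counted, so these counts favour members lower in H1650. HNF4A, a master regulator of hepatocyte and gut genes, was at 46.1, 47.1 and 44.98 CPM in A549 and 0.0643, 0.06695 and 0.165 CPM in H1650. FGA, 1 of 3 fibrinogen chains, was at 55.2, 54.99 and 60 CPM in A549 and 0, 0 and 0 CPM in H1650, at least 1726-fold lower by a floor of 3 counts over the 3 libraries. The other chains were at 26.3 against 0.0553 CPM (FGB) and 20.8 against 0.141 CPM (FGG). SERPINA1, the liver's antitrypsin, was the member higher in H1650 (0.764 against 33.6 CPM). Transcription factors of foregut followed: FOXA2 was at 40.9, 38.4 and 39.3 CPM in A549 and 0, 0.0335 and 0.0331 CPM in H1650, and FOXA1 at 26.1 against 4.04 CPM. H1650 held 2 FOXA2 counts in all, an A549 to H1650 ratio of 1802 (95% counting interval 498 to 14884). Of 16 tested factors, 9 were past 2-fold lower and 2 higher (GRHL1, log2 2.94, and FOXP1, 2.198).

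The airway secretory and mucin genes that could be tested were mostly lower in H1650. Of 26 listed, 14 were tested, and 11 were lower and 2 higher in H1650 past 2-fold. Their median was -5.62 (-5.300 with genes at 0 at their bounds). Listed genes silent in A549 could not be counted, which favours members lower in H1650. The gel-forming mucins MUC5AC and MUC5B were at 231 against 0.0987 CPM and 198 against 1.34 CPM, and AGR2, which folds mucins in the endoplasmic reticulum, at 197 against 1.42 CPM. SPDEF, the goblet-cell transcription factor, was at 26.3, 24.4 and 22.5 CPM in A549 and 0.225, 0.201 and 0.132 CPM in H1650. Membrane mucins went in both directions: MUC13 was at 26.03, 26.4 and 25.3 CPM in A549 and 0, 0 and 0 CPM in H1650, at least 787-fold lower, and MUC16 at 4.69 against 0.515 CPM. MUC1 was at 3.001, 3.18 and 2.93 CPM in A549 and 50.6, 52.4 and 50.9 CPM in H1650, 1 of the 2 members higher in H1650, and MUC4 did not pass the test (0.7301 against 0.821 CPM).

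Of 20 alveolar type II genes 8 were tested, of which 3 were past 2-fold higher and 1 lower in H1650 (median 0.21). LAMP3, a lamellar-body and dendritic-cell protein that interferon also induces, was at 0.3603 against 59.5 CPM, and SLPI, a protease inhibitor of airway fluid, at 8.39 against 273 CPM. CLDN18, a claudin of lung and stomach, was the member past 2-fold lower (4.98 against 0.363 CPM), and the lipid transporter ABCA3 (59.4 against 36.2 CPM) and the factor ETV5 (36.4 against 23.5 CPM) were lower by less. The surfactant gene SFTPB was at 0.2099 against 0.144 CPM, near the counting limit in both. NKX2-1, the lung lineage factor, was not analysed here. Among keratins, KRT19 was at 97.9 against 1304 CPM and KRT7 at 2807 against 1997 CPM, and KRT16 at 1.07 against 308 CPM, although KRT16 shares sequence with close copies.

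**Figure D2:**
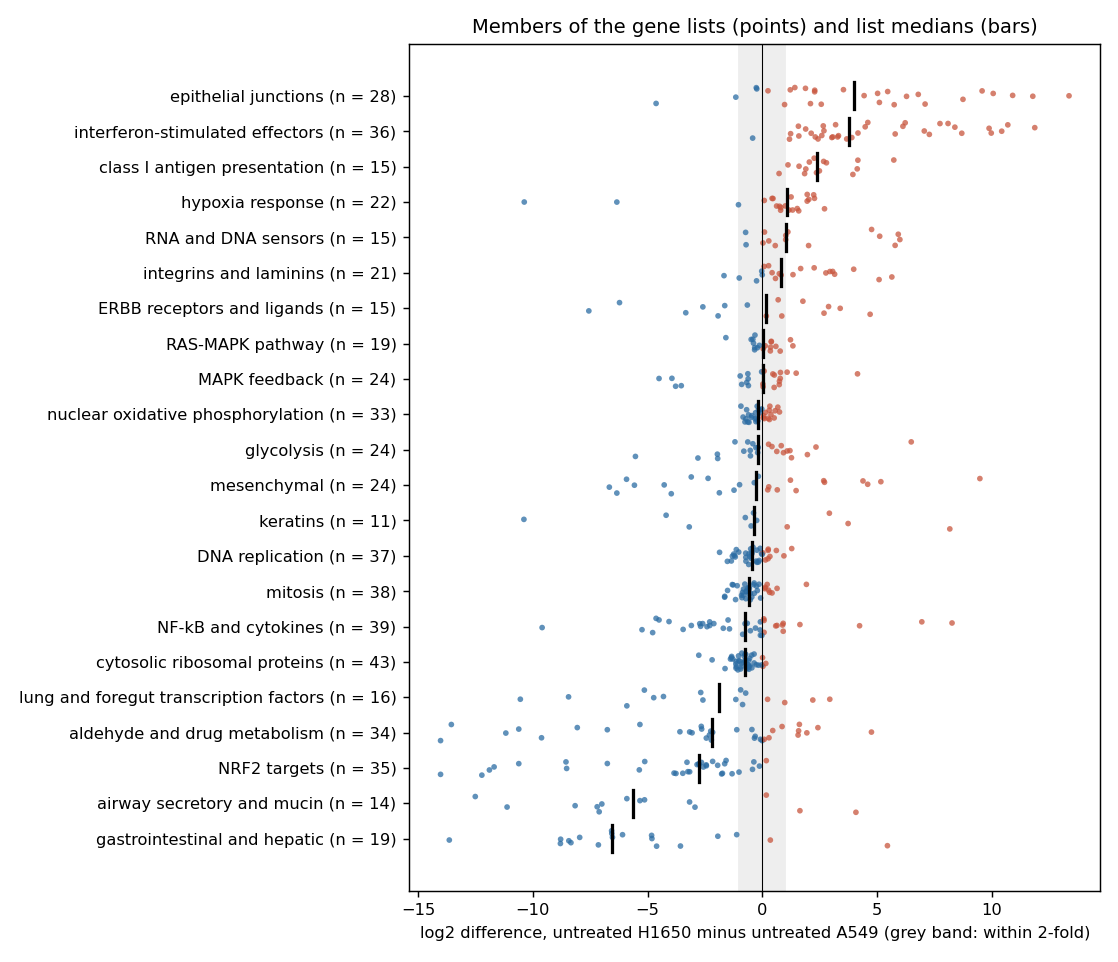
Each point is a tested member of a gene list, placed by its log2 difference (untreated H1650 minus untreated A549), with the list median as a bar and n the members tested. The epithelial junction and interferon lists lie furthest to the right and the gastrointestinal, mucin and NRF2 lists furthest to the left.

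Antiviral genes were higher in untreated H1650 almost throughout. Of 36 tested interferon-stimulated effector genes (47 listed), 35 were past 2-fold higher in H1650 and none lower, with a median of 3.79; IFITM2 was lower by less (25.3 against 18.9 CPM, log2 -0.42, edgeR adjusted p = 3.42e-06). The 36 genes took 0.0826 to 0.0858% of counts in A549 libraries and 1.03 to 1.07% in H1650. MX1, a GTPase that traps viral nucleocapsids, was at 2.13, 1.13 and 1.57 CPM in A549 and 1537, 1477 and 1553 CPM in H1650 (log2 9.88, SE 0.0703, edgeR adjusted p = 4.50e-44). IFI44L, a standard marker of interferon response, was at 0.0349, 0.0353 and 0.0341 CPM in A549 and 148, 148 and 145 CPM in H1650. In A549 it sat at about 1 read per library. BST2 (tetherin), which holds budding virions at the membrane, was at 0.384, 0.318 and 0.273 CPM in A549 and 445, 437 and 479 CPM in H1650, and ISG15, a ubiquitin-like modifier, at 4.29, 3.04 and 3.48 CPM in A549 and 555, 540.2 and 582 CPM in H1650. In these genes no A549 library reached a H1650 library. Smaller differences were found for OAS1 (16.2 against 48.8 CPM), LY6E (164 against 384 CPM) and ISG20 (13.1 against 29.7 CPM).

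Most of these genes hold the ISRE letters just before their start. The motif, GAAA followed by any 2 bases and GAAA again, searched on both strands in the 250 bases before the RefSeq start (build GRCh38.p14), was found in 19 of the 29 members with a promoter entry (65.5%), against 3.18% of 11246 tested genes and 3.02% of 35116 promoters. A match describes the letters and is not a shown binding site. The promoters of 6 members with large differences are given so that the repeated element can be seen, 5′ to 3′ on the strand of the gene, with the matches in capitals.
BST2, chr19:17405741-17405770, minus strand: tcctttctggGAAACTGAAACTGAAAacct
ISG15, chr1:1013374-1013403, plus strand: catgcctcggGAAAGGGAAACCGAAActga
MX1, chr21:41431844-41431873, plus strand: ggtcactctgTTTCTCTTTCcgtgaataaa
RSAD2, chr2:6877622-6877651, plus strand: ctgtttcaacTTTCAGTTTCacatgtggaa
IFI44, chr1:78649736-78649788, plus strand: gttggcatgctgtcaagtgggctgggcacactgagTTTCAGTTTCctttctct
IFI27, chr14:94110593-94110672, plus strand: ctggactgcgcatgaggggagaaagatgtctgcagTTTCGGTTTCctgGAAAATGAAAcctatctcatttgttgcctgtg
BST2 and ISG15 each hold overlapping matches, IFI27 holds a match on each strand, and in MX1, RSAD2 and IFI44 the match lies on the opposite strand.

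The genes that detect viral nucleic acid were partly higher too. Of 15 tested sensors and their adaptors, 7 were past 2-fold higher in H1650 and none lower (median 1.02). RIGI, which detects RNA ends, was at 10.4, 8.98 and 8.79 CPM in A549 and 257, 252 and 253 CPM in H1650, IFIH1 (MDA5, long double-stranded RNA) at 3.52 against 194 CPM and STING1, the adaptor of DNA sensing, at 1.19, 0.707 and 0.988 CPM in A549 and 57.6, 60.3 and 57.9 CPM in H1650. CGAS, which makes the STING1 ligand, was at 17.1 against 18.2 CPM (log2 0.09, negative with upper-quartile scaling), and MAVS and TBK1 were lower in H1650 (log2 -0.71 and -0.73). Of 18 signalling genes, 4 were past 2-fold higher and 1 lower. STAT2, a factor activated by interferon receptors, was at 22.1, 21.6 and 21.3 CPM in A549 and 199, 188 and 194 CPM in H1650, whereas the receptor chains IFNAR1 (53.5 against 73.9 CPM) and IFNAR2 (19.4 against 10.4 CPM) stayed within 2-fold. IRF7, usually counted among interferon-induced genes, was the member past 2-fold lower in H1650, at 4.57, 3.32 and 4.26 CPM in A549 and 1.25, 0.803 and 1.26 CPM in H1650. IRF1 was at 31.5 against 47.1 CPM and IFNLR1, the receptor of type III interferon, at 5.45 against 14.3 CPM. IRF9 and IFNB1 were not analysed here. IFNAR2 shares 83.2% of its exon length with another gene model, so its level is uncertain.

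Genes of antigen presentation on class I molecules were higher in H1650. All 15 tested members of a list of 19 were called higher in H1650 with edgeR, and 14 passed the 2-fold test (median 2.36). Among all genes, 40.1% were called higher and 15.3% were past 2-fold higher. The peptide transporter genes TAP1 and TAP2, ERAP2 and HLA-G were not analysed here. HLA-B was at 5.65, 6.75 and 6.47 CPM in A549 and 328, 329 and 344 CPM in H1650 and HLA-C at 76.1 against 1363 CPM; reads of HLA genes depend on each line's alleles and on close copies, so these levels are uncertain. The light chain B2M was at 193, 186 and 191 CPM in A549 and 1201, 1234 and 1193 CPM in H1650. NLRC5, the transactivator of class I genes, was at 5.95 against 91.7 CPM, and the immunoproteasome genes PSMB8, PSMB9 and PSMB10 were higher by 2.36, 1.84 and 2.79. CD274 (PD-L1) was at 0.803, 0.813 and 0.716 CPM in A549 and 24.6, 21.6 and 22.7 CPM in H1650 and VTCN1 (B7-H4), an inhibitory ligand, at 0.486 against 40.5 CPM. Of 17 checkpoint and stress ligands 10 were past 2-fold higher and 1 lower. Of 8 tested class II genes, 2 were past 2-fold higher and 2 lower, too few to set against the 15.3% and 17.1% of all genes.

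**Figure D3:**
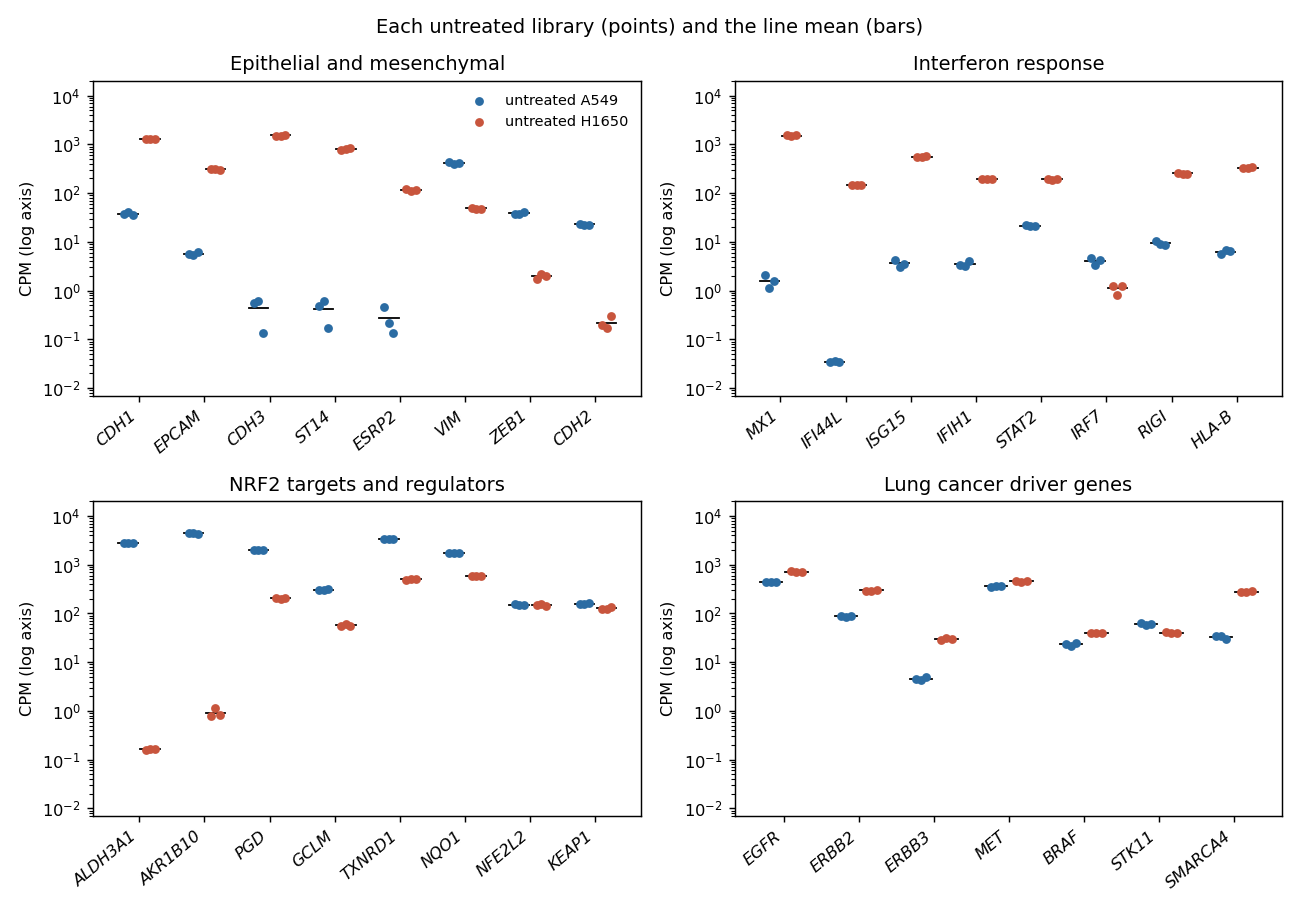
Each point is 1 untreated library and each bar the mean of 3, in CPM on a log axis, for genes of 4 themes in A549 (blue) and H1650 (red). Libraries of a line lie close together against the gap between lines in CDH1, MX1 and ALDH3A1, and the lines are nearly level in NFE2L2 and KEAP1.

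Inflammatory cytokines did not follow the antiviral genes. Of 39 tested NF-kB and cytokine genes, 17 were past 2-fold lower and 4 higher in H1650 (median -0.76). CXCL5, a chemokine for neutrophils, was at 329, 322 and 329 CPM in A549 and 0.418, 0.402 and 0.4303 CPM in H1650, CCL2, a chemokine for monocytes, at 48.6 against 1.95 CPM, and CXCL8 at 30.7 against 10.9 CPM. IL6 went the other way at 0.489, 0.177 and 0.238 CPM in A549 and 95.2, 93.6 and 93.5 CPM in H1650, and so did CCL28 (0.394 against 49.2 CPM) and TNFSF10 (TRAIL, 0.302 against 5.75 CPM). The NF-kB subunit RELA was nearly level (109 against 114 CPM, log2 0.06, negative with upper-quartile scaling).

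NRF2 target genes were lower in H1650, and none of 35 tested was past 2-fold higher. Of these, 30 passed the 2-fold test as lower, with a median of -2.77. Together they took 4.56 to 4.62% of all counts in A549 and 0.653 to 0.664% in H1650. ALDH3A1, an aldehyde dehydrogenase, was at 2862, 2818 and 2777 CPM in A549 and 0.161, 0.167 and 0.165 CPM in H1650. AKR1B10, an aldo-keto reductase that reduces retinal, was at 4411, 4408 and 4338 CPM in A549 and 0.771, 1.14 and 0.827 CPM in H1650. Both were close to absent in every H1650 library. NQO1, a quinone reductase, was at 1737, 1716 and 1770.4 CPM in A549 and 575, 593 and 576 CPM in H1650 (log2 -1.58, SE 0.0415, edgeR adjusted p = 1.39e-27), so it stayed well expressed in H1650. The glutathione synthesis genes GCLC and GCLM were at 452 against 40.8 CPM and 309 against 56.8 CPM, the cystine importer SLC7A11 at 194 against 28.7 CPM and thioredoxin reductase TXNRD1 at 3418 ± 49.7 against 499.6 ± 8.35 CPM. The regulator gene NFE2L2 was at 153, 148 and 149 CPM in A549 and 149.9, 157 and 145 CPM in H1650 and KEAP1 at 156, 155 and 162 CPM in A549 and 125, 125 and 135 CPM in H1650. The RNA of regulator and repressor thus differed little (log2 0.01 and -0.296), and the sign for NFE2L2 changed with the scaling. SQSTM1, which binds KEAP1 and is itself induced by NRF2, was at 1482 against 172 CPM.

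The antioxidant response element, to which NRF2 binds with small MAF proteins, was searched in the same 250 bases, on both strands, as TGAC followed by any 3 bases and GCA. It was found in 4 of the 24 NRF2 members with a promoter entry (16.7%), against 3.28% of tested genes and 2.59% of promoters. These are shown for 3 genes lower in H1650, with the match in capitals and in each case on the strand opposite to the gene.
GCLM, chr1:93909446-93909475, minus strand: ctacgatttcTGCTTAGTCAttgtcttcca
TXNRD1, chr12:104286919-104286948, plus strand: agtggatttcTGCTTTGTCAttctgactct
CYP4F11, chr19:15934980-15935059, minus strand: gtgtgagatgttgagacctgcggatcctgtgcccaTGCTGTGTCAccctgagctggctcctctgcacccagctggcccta
CYP4F11, a fatty acid and drug hydroxylase, was at 162 against 0.0997 CPM.

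Genes of aldehyde and drug metabolism, a list that shares 4 members with the NRF2 targets, were more often lower than higher in H1650. Of 34 tested aldehyde and drug metabolism genes, 19 were past 2-fold lower and 6 higher (median -2.197). Without the 4 shared genes, which are ALDH3A1, CYP4F11, ABCC2 and ABCC3, 15 of 30 were lower and 6 higher, with a median of -0.79. ALDH1A1, a retinal dehydrogenase used as a stem-cell marker, was at 6608, 6630.1 and 6748 CPM in A549 and 0.578, 0.469 and 0.596 CPM in H1650. DHRS9, a retinol dehydrogenase, and CRABP2, which carries retinoic acid to the nucleus, were higher in H1650 (0.488 against 13.2 CPM and 2.96 against 1324 CPM). GSTP1, a glutathione transferase, was at 615, 597 and 607 CPM in A549 and 0, 0.0335 and 0 CPM in H1650. H1650 gave 1 GSTP1 count over its 3 libraries, an A549 to H1650 ratio of 55302 (95% counting interval 9925 to 2184300). The mitochondrial ALDH2 was at 62.98 against 0.232 CPM, and the exporters ABCC2, ABCC3 and ABCG2 were at 948 against 8.74 CPM, 909 against 202 CPM and 147 against 26.95 CPM. Of 16 glutathione transferases and peroxidases, 8 were lower and 2 higher. FTL, the ferritin light chain, was at 8713, 8820.5 and 8969 CPM in A549 and 214, 217 and 212 CPM in H1650 and the heavy chain FTH1 at 2803 against 2565 CPM. The log2 differences of the ferritin chains were thus -5.36 and -0.13; both have many processed copies, so their counts are uncertain.

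Of the driver genes given in this paragraph, SMARCA4 passed the 2-fold test and EGFR, MET, BRAF and STK11 did not. The driver genes ERBB2 and ERBB3 are given below with their family and were also higher in H1650. EGFR was at 452, 440.1 and 449 CPM in A549 and 733, 716 and 711 CPM in H1650 (log2 0.69, SE 0.039, edgeR adjusted p = 1.06e-17). MET was at 358 against 458 CPM and BRAF at 23.4 against 40 CPM. STK11 was at 61.3 against 40.7 CPM. SMARCA4, the ATPase of the SWI/SNF remodelling complex, was at 34.5, 35.2 and 29.98 CPM in A549 and 278, 276 and 285 CPM in H1650 (log2 3.07, SE 0.0499, edgeR adjusted p = 8.95e-34), higher in every H1650 library. CDKN2A, CDKN2B and MTAP, neighbours on 9p21, were not analysed here.

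Receptors and ligands of the ERBB family were exchanged between the lines. Of 15 tested, 5 were past 2-fold higher and 6 lower in H1650. ERBB3, a receptor with little kinase activity of its own, was at 4.54, 4.35 and 4.94 CPM in A549 and 28.3, 31.5 and 29.3 CPM in H1650 and ERBB2 at 87.2 against 296 CPM. Of the EGFR ligands, EGF (0.776 against 20.2 CPM), TGFA (20.2 against 212 CPM) and HBEGF (9.65 against 71.4 CPM) were higher in H1650, whereas EREG (154 against 0.816 CPM) and AREG (17.5 against 2.904 CPM) were lower. NRG1, the ligand of ERBB3, was at 197, 195 and 190.3 CPM in A549 and 2.38, 3.15 and 2.25 CPM in H1650, high where ERBB3 was low. Of other receptor kinases, PTK7 (7.93 against 227 CPM) and ROR2 (3.25 against 49.4 CPM), both Wnt co-receptors, were higher, and IGF1R (186 against 31.7 CPM), FGFR1 (265 against 69.6 CPM) and NTRK3 (54.4 against 0.01103 CPM) lower. The insulin receptor substrates IRS1 (146 against 11.2 CPM) and IRS2 (90.6 against 24.7 CPM) were lower with IGF1R. In H1650 PIK3R3, a PI3K regulatory subunit, and INPP4B, a lipid phosphatase, were higher (3.32 and 2.81).

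The MAPK pathway itself was close to level. Of 19 RAS-MAPK genes, 2 were past 2-fold higher and 1 lower (median 0.03, 3 of 19 in all against 32.4% of all genes). Of 24 genes induced by the pathway or feeding back on it, 2 were higher and 4 lower. The phosphatase DUSP4 was at 351, 371 and 362 CPM in A549 and 24.2, 21.9 and 24.4 CPM in H1650 and the factor ETV1 at 10.3 against 0.891 CPM, whereas DUSP6 (11.3 against 7.34 CPM) and SPRY4 (24.9 against 16.3 CPM), which read out the same pathway, stayed within 2-fold. EGR1, an immediate early gene, was at 0.835 against 14.9 CPM. MYC was at 195 ± 1.54 against 99.5 ± 4.796 CPM (log2 -0.97).

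In mitosis 29 of 38 genes were called lower in H1650 and 8 higher, against 42.3% and 40.1% of all genes. The 2-fold test was passed by 6 and 1 of them, and the 6 are a share near the 17.1% of all genes past 2-fold lower (median -0.58). MKI67 was at 776 ± 21.5 against 477 ± 15.5 CPM and TOP2A, which untangles chromosomes, at 782 ± 23.7 against 250 ± 13.7 CPM. ANLN, a cytokinesis scaffold, was at 222 ± 1.801 against 840 ± 24.9 CPM, the mitosis gene past 2-fold higher. In DNA replication 25 of 37 were called lower and 8 higher, and 7 were past 2-fold lower, among them PCNA (475 against 209 CPM), again a share near that of all genes, and 1 higher. Of 43 ribosomal protein genes, 39 were called lower and 1 higher (median -0.77), against the same 42.3% and 40.1% of all genes. Past 2-fold lower were 12 of the 43, against 17.1% of all genes. The 43 genes took 3.35 to 3.46% of counts in A549 and 1.96 to 2.04% in H1650. RPS16 was at 1509 against 488 CPM and RPL4 at 2120.1 against 832 CPM; RPS18 was the member called higher (513 against 569 CPM). Many processed copies of these genes exist, so single levels are uncertain. FBL, the methyltransferase of ribosomal RNA, was at 438 against 137 CPM and nucleolin, NCL, at 1713 against 1040.4 CPM.

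Glycolysis genes differed in both directions. Of 24 glycolysis genes, 6 were past 2-fold higher and 5 lower (median -0.19), against 15.3% and 17.1% of all genes. Among hexokinases, HK2 was at 1.95, 2.403 and 2.52 CPM in A549 and 204, 199 and 216 CPM in H1650 and HKDC1 at 102, 104 and 105 CPM in A549 and 2.15, 2.41 and 2.15 CPM in H1650, and HK1 at 136 against 288 CPM. HK2 and HKDC1 thus moved in opposite directions. The lactate transporters SLC16A3 (65.6 against 331 CPM) and SLC16A1 (79.7 against 310.4 CPM) were higher in H1650 and the lactate dehydrogenase subunit LDHB (1200.3 against 308 CPM) lower. Hypoxia-response genes were higher: 11 of 22 past 2-fold against 2 lower (median 1.08), including VEGFA (43.6 against 210.3 CPM), ANGPTL4 (18.6 against 87.8 CPM) and PDK1 (9.32 against 36.1 CPM). CA12, a carbonic anhydrase in that list, was at 1049, 1071 and 1095 CPM in A549 and 0.675, 0.971 and 0.761 CPM in H1650.

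PGD, an enzyme of the oxidative pentose phosphate pathway, was at 1963, 1979.5 and 2019 CPM in A549 and 203, 200 and 208 CPM in H1650. TKT (2432 against 630 CPM) and TALDO1 (408 against 74.7 CPM) were lower in H1650 with it, and all 3 are also NRF2 targets. IDH2, the mitochondrial source of NADPH, was at 52.1 against 157 CPM. The serine pathway was higher at its first step, PHGDH (44.6, 44.9 and 47.7 CPM in A549 and 205, 201 and 208 CPM in H1650), and at CBS (23.3 against 187 CPM), which starts cysteine synthesis, whereas GLDC, which cleaves glycine, was at 48.5 against 0.664 CPM. Glutamine genes GLUL (26.4 against 195 CPM) and GPT2 (25.6 against 158 CPM) were higher in H1650. CPS1, the first enzyme of the urea cycle, was at 55.8, 58.2 and 61.3 CPM in A549 and 0.225, 0.1004 and 0.199 CPM in H1650 and ASS1, a later one, at 18.1, 19.3 and 17.1 CPM in A549 and 127, 134 and 130.1 CPM in H1650. The urea cycle enzymes thus moved in opposite directions. Of 33 nuclear oxidative phosphorylation genes none was past 2-fold (edgeR: 18 called lower, 9 higher, median -0.18). Among all genes, 42.3% were called lower, 40.1% were called higher and 32.4% were past 2-fold.

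Lipid genes differed in both directions. Of all genes, 15.3% were past 2-fold higher and 17.1% lower. Of 24 cholesterol genes, 4 were past 2-fold higher, a share near that of all genes, and 1 lower. Of 27 fatty acid genes, 6 were higher and 6 lower. The desaturases SCD (869 against 443 CPM) and SCD5 (18.3 against 129 CPM) differed in opposite directions, and FADS2 (646 against 57.8 CPM) and ELOVL2 (36.3 against 0.579 CPM), which make polyunsaturated chains, were lower. FASN was nearly level (706 against 652 CPM).

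Developmental signalling genes differed in both directions. The counts below stand against 15.3% of all genes past 2-fold higher and 17.1% lower. In Wnt, 8 of 28 were past 2-fold higher and 9 lower in H1650: the secreted inhibitors DKK1 (427, 419.6 and 437 CPM in A549 and 1.29, 1.77 and 1.29 CPM in H1650) and SFRP1 (48.04 against 0.997 CPM) and the feedback target AXIN2 (8.87 against 0.947 CPM) were lower. Wnt genes called higher in H1650 included NKD1, WNT5B, WNT9A and FZD6. In the BMP family, the ligand BMP4 (25.03 against 0.0542 CPM) was lower and BMP7 (3.13 against 129 CPM) and the antagonist NOG (1.04 against 40.5 CPM) higher, and ID2, a BMP target, was at 155 against 7.79 CPM. YAP/TEAD targets were 9 higher and 2 lower of 24, with CCN1 at 64.6, 56.02 and 59.6 CPM in A549 and 1478, 1377 and 1495 CPM in H1650, CCN2 at 28.6 against 355 CPM and ANKRD1, a target of the same factors, at 33.9 against 4.52 CPM. Among Notch genes 5 of 18 were higher and 1 lower. Imprinted genes split evenly, 6 higher and 6 lower of 16. H19 was at 10.1, 10.04 and 11.01 CPM in A549 and 0, 0.0335 and 0 CPM in H1650, MEG3 at 23.6 against 0.359 CPM and GRB10 at 77.2 against 0.605 CPM, while PEG10 (288 against 1375 CPM) and GNAS (564 against 2568 CPM) were higher in H1650.

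Several differences came in blocks of neighbouring genes. A run was at least 7 consecutive genes, among genes with at least 1 CPM in a line, that differed in 1 direction. Each gene of a run was called with a log2 difference of at least 1, and the 2-fold test was not required. Such runs numbered 18, of which 13 were lower and 5 higher in H1650 (coordinates on GRCh38, from GENCODE 29). Genes silent in A549 could not be part of a run, so these counts favour runs lower in H1650. The AKR1C cluster on chromosome 10, 4871901 to 5288470, held 8 genes with a median of -7.79; AKR1C1, AKR1C2 and AKR1C3 share most of their sequence, so reads may be split among them. On chromosome 12, 6988259 to 7158945, the complement proteases C1S and C1R lay in a run of 7 with a median of -6.55. A run of 14 lower genes on chromosome 8, 40153455 to 42332653, had a median of -2.18 and included SFRP1, KAT6A and IKBKB. Of runs higher in H1650, 8 genes on chromosome 2, 229922302 to 230821075, included the interferon-inducible SP110 and SP100 (median 2.41). A run of 10 on chromosome 20, 63739861 to 64100643, had a median of 1.596. A run of 7 on chromosome 19, 57921884 to 58213562, mostly zinc finger genes such as ZNF274 and ZNF256, had a median of 3.198.

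Whole chromosomes differed less. Medians per chromosome ran from -0.74 on chromosome 13, where 32.6% of 258 genes were past 2-fold lower and 5.04% higher, to 0.47 on chromosome 21. Chromosome X (-0.46) and 17 (-0.43) were low and 22 (0.46) and 20 (0.43) high. DNA copy number was not measured, so its part in these medians was not tested.

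**Figure D4:**
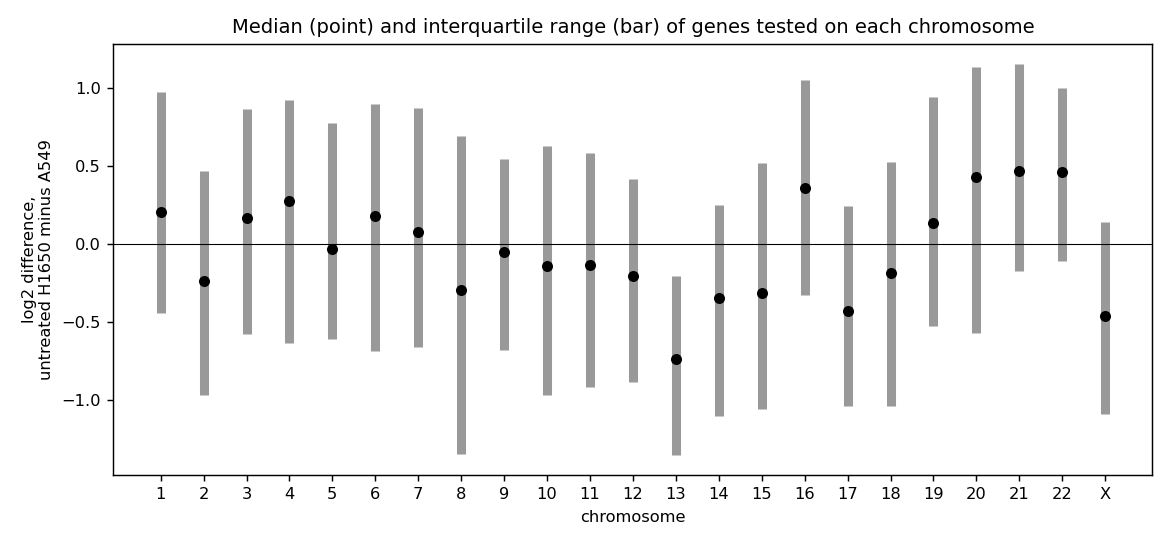
Points are the median and bars the interquartile range of the log2 difference (untreated H1650 minus untreated A549) over the genes tested on each chromosome. Chromosome 13 is lowest at -0.74, and the bar of each chromosome is wide against the shifts between medians.

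The difference between the lines was measured again in the libraries over-expressing SRSF2, which are separate libraries of the same lines. There 5639 genes (35.3%) were past 2-fold, 2661 (16.6%) higher and 2978 (18.6%) lower in H1650. Of these, 4283 were past 2-fold in the same direction in the untreated libraries, 1965 higher and 2318 lower, and 5 were past 2-fold in opposite directions. Those 4283 genes are 82.6% of the 5188 untreated and 76% of the 5639 SRSF2 genes. In epithelial junction genes the median was 4.34 with SRSF2 and 3.98 without, in NRF2 targets -3.01 and -2.77, and in interferon effectors 3.95 and 3.79. Medians moved further in gastrointestinal and hepatic genes (-4.91 with SRSF2 and -6.53 without), cytokines (0.26 and -0.76), class I antigen presentation (3.13 and 2.36) and aldehyde and drug metabolism (-1.49 and -2.197). These shifts of medians were not tested. Single interferon genes differed from the untreated comparison: with SRSF2, MX1 was at 40.7, 39.7 and 38.8 CPM in A549 and 2321, 2401 and 2437 CPM in H1650. MX1 was thus higher in the SRSF2 libraries of both lines than in the untreated ones, and the gap between the lines was smaller (log2 -3.97, SE 0.101, edgeR adjusted p = 1.58e-25, for the change of the line difference).

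**Figure D5:**
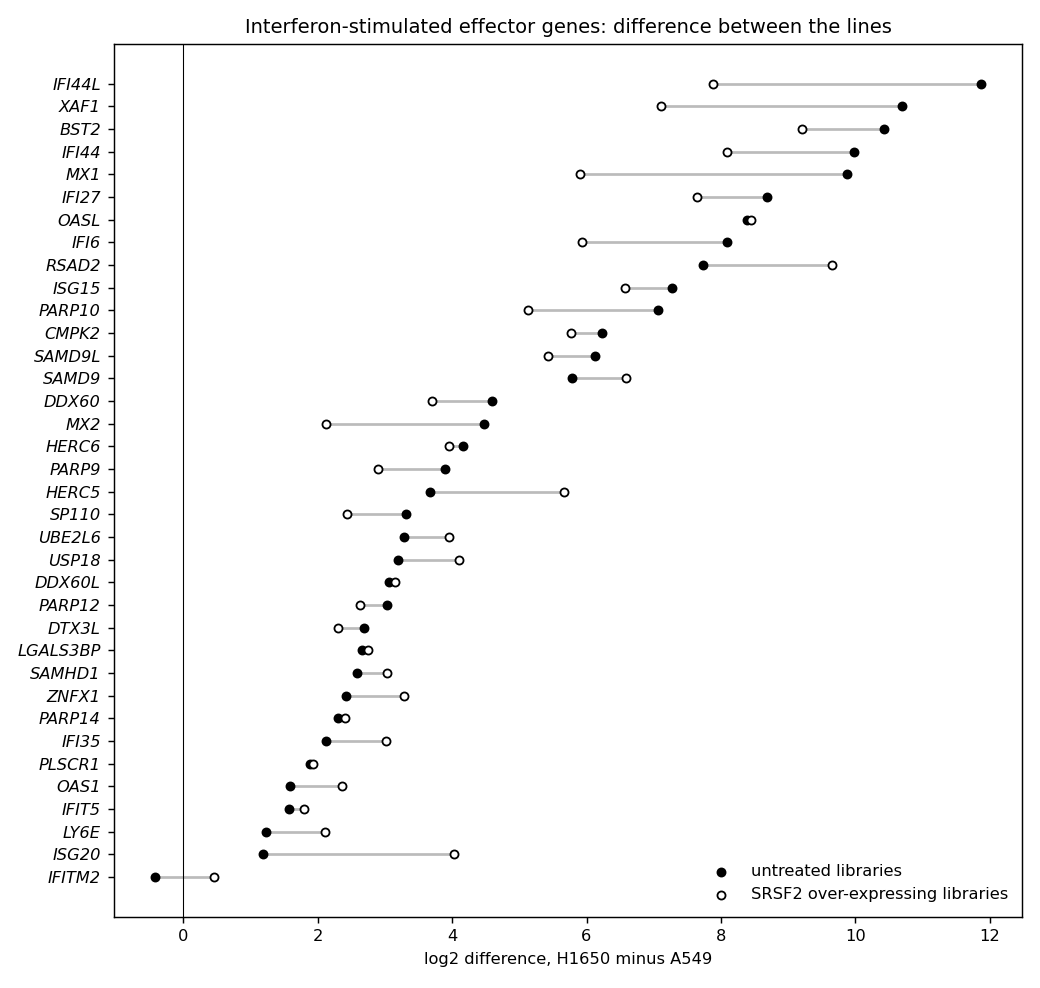
Each row is a tested interferon-stimulated effector gene, with its log2 difference between the lines (H1650 minus A549) in untreated libraries (filled) and in libraries over-expressing SRSF2 (open). In both, 35 of 36 genes were past 2-fold higher in H1650, and MX1, IFI44L and XAF1 differed less with SRSF2.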

How the data were processed

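The authors deposited raw counts per gene. The submitters' processing notes name fastp 0.20.1, STAR 2.7.7a, featureCounts 2.0.0 and the build GRCh38. The gene annotation, the strand setting and the rule by which genes entered the table are not given in the sources used here, so overlapping genes, antisense genes and near-identical copies are uncertain. The table holds 16599 genes. Symbols were found for 15030 IDs in the name table supplied and for 1109 more in GENCODE 29, and 460 IDs had none. Of 15574 tested genes with exon models, 527 share more than 50% of their exon length with another gene.

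Libraries were grouped by the line and treatment in their labels. Counts of all 12 libraries were fitted with edgeR 4.0.16 in R 4.3.3 (filterByExpr, TMM scaling, quasi-likelihood, 1 mean per group, 8 residual degrees of freedom), and untreated H1650 was contrasted with untreated A549. A gene was called at a Benjamini-Hochberg adjusted p under 0.05 over 15991 genes, and past 2-fold by glmTreat at a log2 of 1. For genes at 0 in a line, a floor of 3 counts summed over its libraries gave a bound, and counts of 1 to 3 gave a ratio with an exact 95% interval. Such intervals cover counting error only. Levels are not compared between genes. Replicates of a line differed beyond counting noise in every pair (chi-square 2.29 to 4.05 per degree of freedom).

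Genes to name were the 15 largest differences per direction past 2-fold at 5 CPM or more in the higher line, up to 4 per direction in each gene list by size, and a fixed set of driver, lineage, interferon and redox genes. Other members named were chosen after their values were seen, and some genes given by the rule are not reported here. The members and lists were chosen with earlier results of these data known. On simulated counts (15511 genes, 15317 of them unchanged), the 2-fold test passed 77.5% of 40 genes with a true 3-fold change. It passed 94.9% of 39 with a 4-fold change and none of 38 at 2-fold. Of genes called there at adjusted p under 0.05 with edgeR, 7.03% were unchanged. In the data most genes were called, so these shares need not hold there. Alternatives were RLE and upper-quartile scaling, DESeq2 1.42.0, other filters, the 6 untreated libraries alone, a replicate block and leaving out each library.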

Additional observations from a re-analysis of the deposited data

Results flagged for a closer look

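The following genes had a difference between the lines that itself differed between SRSF2 and untreated libraries, by the edgeR test of that difference (SRSF2 minus untreated, log2). The line differences with SRSF2 and without come from separate libraries. For MX1 the value was -3.97 and for IFI44L -3.99, both smaller line differences with SRSF2. For PFKFB4, a regulator of glycolysis, it was -2.47. For IL6 it was 3.06, for PIK3AP1, an adaptor of PI3K, 3.04, and for IGF2, a growth factor, 4.23. The unnamed gene ENSG00000237805 gave 4.91 and the non-coding AC046185.1 gave 7.3. PFKFB4, PIK3AP1, IGF2, ENSG00000237805 and AC046185.1 are the genes past 2-fold in opposite directions. IGF2 was at 1.95, 2.93 and 2.28 CPM in A549 and 0.353, 0.736 and 0.4303 CPM in H1650 in untreated libraries and at 2.29, 2.399 and 2.39 CPM in A549 and 9.72, 9.51 and 9.13 CPM in H1650 with SRSF2.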

How the results depend on the processing

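Called genes numbered 12325 to 13521 and genes past 2-fold 4546 (DESeq2) to 5406 (no filter on low counts) under the alternatives, against 13182 and 5188. No gene past 2-fold changed direction under any of them. Upper-quartile scaling moved the median of all genes the most, by -0.0972 on the log2 scale, and calls higher in H1650 made up 44.46 to 49.21% of calls. Leaving out 1 library gave 12963 to 13044 called genes and 5112 to 5156 past 2-fold. Members past 2-fold moved by over 1.5 times in 3 lists: tumour suppressors, 3 against 5 with upper-quartile scaling; serine and one-carbon, 5 against 8 with DESeq2; and splicing regulators, 1 against 2 with upper-quartile scaling, DESeq2 and the 1 CPM filter, and 1 to 2 when a library was left out (1 without A549 replicate 1 or 3 or H1650 replicate 1 or 3). The cause was not tested. Of single genes named, NFE2L2 (main 0.01) turned negative with RLE scaling (-0.0201), DESeq2 (-0.0201), the 1 CPM filter (-0.0203), upper-quartile scaling (-0.092, edgeR adjusted p = 0.0302) and the 6 untreated libraries alone (-0.0055), and without 1 library it ran from -0.0157 to 0.0387. CGAS (-0.0057) and RELA (-0.0358) turned with upper-quartile scaling, and SFTPB ran from -1.5972 to 0.0567 without 1 library. Replicates of the same number did not deviate together (r from -0.04 to 0.02), so they were not taken as pairs; with the replicate block 13150 genes were called and 5183 were past 2-fold. Few counts limit 479 tested genes with at most 3 counts over the 3 untreated H1650 libraries, against 3 such genes in A549. The H1650 libraries were the deeper ones, and the table holds only genes with a count in at least 4 A549 libraries.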

Other observations

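The 15 largest differences in each direction included genes in none of the lists. CPLX2, a regulator of vesicle fusion known from neurons, was at 2747, 2832 and 2851 CPM in A549 and 0.0321, 0.335 and 0.265 CPM in H1650. TCIM was at least 3643-fold lower, the developmental factor TBX18 at least 2822-fold and the kinase LRRK2 at least 1021-fold. Higher in H1650 were S100A14 (0.255 against 205 CPM) and PLXDC2 (0.174 against 109 CPM).

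Other lists differed as well. Of 9 tested neuroendocrine genes, 5 were past 2-fold lower in H1650 and none higher, among them the neuronal deubiquitinase UCHL1 (698 against 6.76 CPM). Here too, listed genes silent in A549 could not be counted. Of 5 tested mesothelial markers, 4 were past 2-fold higher, including MSLN (1.71 against 86.3 CPM) and CALB2 (6.34 against 149 CPM), and WT1 was lower (9.69 against 0.0552 CPM). Of 16 tested HOX genes 6 were higher and 5 lower past 2-fold: HOXB7 was at 25.1 against 0.185 CPM and HOXC4 at 0.474 against 5.48 CPM.

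The last part of chromosome 19, from 57000000, held 33 tested zinc finger genes, of which 15 were past 2-fold higher and 1 lower (median 1.16). Other genes of that part are not in this count. The end of chromosome 20, from 63000000, held 33 tested genes, of which 16 were past 2-fold higher and 2 lower (median 1.32). These windows were chosen after the runs had been seen.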
